A study of Mus musculus with 4 samples.

Results

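The genes of the AP-1 and BATF transcription factors, Fos, Fosb, Fosl1, Fosl2, Jun, Junb, Jund, Batf, Batf3 and Atf3, were followed in an ATAC-seq comparison of large peritoneal macrophages (LPMs) with and without the retinoid X receptors RXRα and RXRβ. ATAC-seq reads where a transposase can insert adaptors, which is at accessible chromatin, so that regulatory sequence stands out as peaks. LPMs were sorted from C57BL/6 mice of 9 weeks, 40000 cells to a library. The control genotype, Rxrab fl/fl, carries the floxed Rxra and Rxrb alleles without Cre (replicates 1 and 3, called Cre-negative here). The other, LysMCre+ Rxrab fl/fl, carries those floxed alleles together with Cre driven from the LysM (Lyz2) locus, which acts in myeloid cells generally and not in LPMs alone (replicates 1 and 2, called Cre-positive). Overlapping peaks (by 1 bp or more) of all 4 libraries were joined, which gave 70744 regions. A region was assigned to a factor gene when the transcription start site (TSS) nearest to its midpoint was that of the gene, or when it overlapped the gene body, on RefSeq transcripts of mm10. This gave 79 regions for the 10 genes, all 79 of them by the nearest TSS. Of these, 36 were called in all 4 libraries, out of 15199 such regions in the whole data set.

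AP-1 is not one protein but a set of dimers of basic leucine zipper (bZIP) factors. JUN proteins pair with each other or with FOS proteins, which do not form stable homodimers, and BATF proteins pair with JUN proteins and bind composite sites together with IRF4 or IRF8. The dimers bind the motif TGANTCA. Fos, Fosb, Jun, Junb and Atf3 are immediate early genes whose transcription is switched on within minutes by mitogen-activated protein kinases. In macrophages AP-1 factors bind many enhancers beside PU.1 and C/EBP, the lineage factors of these cells.

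The number of peaks differed within and between the genotypes, with 16097 in Cre-negative replicate 3 and 38048 to 65421 in the others. All 36 member regions that Cre-negative replicate 3 called were called in the other libraries too, as were 15199 of all 15478 regions that it called. A region is described by 3 measures, each from its strongest peak in a library. The fold enrichment is the number of tags piled up at the summit over the local background, as deposited. The summit pileup is that number of tags itself, solved from the fold enrichment and p value. Regions are ranked within a gene, and called its strongest, by the mean log2 fold enrichment over the libraries with a call. The tags in 10 kb are the tags in the window that sets the local background, recovered in the same way. The background has a floor in each library, and where it lies at the floor the value is this constant and not a count. It lay above the floor at 85.5% and 90.5% of peaks in the Cre-negative and 77.4% and 86.9% in the Cre-positive libraries. All tests were made on log2 values after subtraction of the library median. For the fold enrichment this median is 14.5 and 7.52 in the Cre-negative and 15.1 and 12.0 in the Cre-positive libraries. The pileup and the tags in 10 kb are given as multiples of a library's median over the 15199 regions. For the pileup this median is 97 and 20 tags in the Cre-negative libraries and 99 and 65 in the Cre-positive ones. In each pair of values the first is replicate 1 of the genotype. The labels do not say that the replicates are separate mice, and p values then measure only the spread between these samples. In a bulk sample, a site open in fewer cells cannot be told apart from a site less open in each cell. Of 8 LPM marker genes, 6 had a promoter region in each Cre-negative library, Gata6 and Timd4 among them, and all 8 had one in each Cre-positive library. The 6 had a median log2 change in pileup of −0.82 (−0.22 over the promoters of all genes), with none past the threshold. Gata6 had pileups of 0.897 and 1.00 against 0.253 and 0.708 medians and Timd4 0.402 and 0.50 against 0.242 and 0.277, both lower in each Cre-positive library. Adgre1 and Alox15 were lower in each as well, while Icam2 and Rarb overlapped between the genotypes. Itgam and Csf1r had a promoter region in the Cre-positive libraries only. The summed pileups of the 8 were 4.94 and 6.10 against 3.59 and 5.94 medians. Of 6 markers of small peritoneal macrophages and monocytes, 3 and 1 had one in Cre-negative and 5 in each Cre-positive library, with summed pileups of 1.63 and 0.95 against 2.16 and 2.94 medians. The part of cell composition in the differences below was not tested. At most 2 of 4 genes had a promoter region in any library for granulocytes and mast cells, at most 1 of 4 for B cells and for T and NK cells, and none of 4 for mesothelium. The targeted genes Rxra and Rxrb had 26 and 2 regions by the same rule, and a list of peaks cannot tell whether their floxed exons are gone. The samples share one library batch in the labels. The study left out samples that did not cluster with their group, so that the spread may be understated.

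Sequences of the accessible DNA at these genes are given first, because members of the family are known to bind the regulatory sequence of their own genes. The TGANTCA motif occurred within 100 bp of the summit in 10 of the 79 member regions, or 12.7% (95% Wilson interval 7.02 to 21.8, counting error only), and in 12.7% of all regions. It was in 2 of the 36 regions called in all 4 libraries (5.56%, interval 1.54 to 18.1), against 12.3% of all such regions. The share at the genes of the factors thus lay within counting error of the share elsewhere. The AP-1 matches in regions called in at least 2 libraries are shown on the plus strand of mm10, with the motif in capitals and 10 bases either side.
Fos, 36.3 kb upstream, chr12:85437754-85437780: aaggtacagaTGAATCActctgtggct
Fos, 45.9 kb downstream, chr12:85519715-85519741: cttccctgggTGACTCAgtgatccacg
Fos, 45.9 kb downstream, chr12:85519767-85519793: tggtattcggTGAGTCAtactgtctgt
Fosb, 17.3 kb upstream, chr7:19327338-19327364: tccccgctgaTGACTCAttacgtcatc
Fosl1, 1.15 kb downstream, chr19:5448845-5448871: tcactgaggcTGAGTCAccctgggtgc
Jun, 29.6 kb upstream, chr4:95081843-95081869: gaactcagggTGACTCAgcttcacatg
Atf3, 10.7 kb upstream, chr1:191193790-191193816: gtgttccaccTGAGTCAccctgtttcc
Atf3, 10.7 kb upstream, chr1:191193944-191193970: aacatctctcTGATTCAtagacgtctg
The matches of the Fosb and Atf3 regions are those in regions called in all 4 libraries. The Jun match lies in a region called only in the Cre-positive libraries, and the Fosl1 match lies in an intron, 4 bp from the summit.

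The CArG box, bound by the serum response factor that induces immediate early genes, occurred within 100 bp of the summit in 2 member regions. Both were called in all 4 libraries. One is at the Fosb promoter and the other 12.1 kb downstream of the Fos TSS. At the Fos promoter the searched window lies wholly past the TSS, so the bases before the TSS were not searched for this box. The share was 2.53% of the members (interval 0.697 to 8.77) and 1.06% of all regions. The matches are shown in the same way.
Fosb promoter, chr7:19310298-19310327: acgcaattagCCATATAAGGagctcggcca
Fos, 12.1 kb downstream, chr12:85486104-85486133: tccgttctgcCCATATTTGGaaaggcgccg
The C/EBP motif TTGCNNAA was in 6 of the 79 regions (7.59%, against 11.1% of all regions), the PU.1 motif GAGGAAGT in 3 (3.80% against 9.30%), the GATA motifs AGATAA or TGATAA in 7 (8.86% against 10.6%) and the nuclear receptor half-site AGGTCA in 11 (13.9% against 13.0%). The full CRE, TGACGTCA, and the RXR elements DR1 and DR5 were in none of the 79, which allows a share of up to 3.80% each, and in 0.862%, 0.164% and 0.151% of all regions. All motifs were searched on both strands within 100 bp of the summit, and a half-site may be part of a DR1 or DR5. The Wilson intervals of the members held the share of all regions for each of these motifs. The members' windows had a median GC content of 54.7%, against 51.7%.

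At the promoters themselves, RefSeq sequence (GRCm38.p6) was matched for 9 of the 10 genes, all but Fosl1. For Jund and Fosl2 the 250 bases before the RefSeq TSS lie outside the accessible region that holds the gene's GENCODE start. None of the 9 held TGANTCA in the 250 bases before the TSS, which 6.75% of 32851 RefSeq promoters do. The variant with 2 central bases, TGANNTCA, was in 2 of 9 (11.9% of all promoters), Jun and Jund. The CRE core TGACG was in 5 of 9, Fos, Fosb, Junb, Batf and Atf3 (17.8% of all promoters). The TATA box TATAAA was in Fos alone (12.4%), and the SP1-type box GGGCGG was in 7 of 9 (32.7%), all but Junb and Jund. The promoters of Fos, Jun and Atf3 are shown on the strand of the gene, 5′ to 3′ and ending at the base before the TSS, since they hold these elements and are the promoters compared below. Capitals mark TGACG or TGANNTCA on either strand and TATAAA.
Fos, chr12:85473640-85473889, plus strand: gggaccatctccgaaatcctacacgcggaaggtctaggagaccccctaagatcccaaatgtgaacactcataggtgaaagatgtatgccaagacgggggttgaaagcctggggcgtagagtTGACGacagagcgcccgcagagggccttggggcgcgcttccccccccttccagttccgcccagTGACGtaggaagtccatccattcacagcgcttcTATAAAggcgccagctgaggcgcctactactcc
Jun, chr4:95052223-95052472, minus strand: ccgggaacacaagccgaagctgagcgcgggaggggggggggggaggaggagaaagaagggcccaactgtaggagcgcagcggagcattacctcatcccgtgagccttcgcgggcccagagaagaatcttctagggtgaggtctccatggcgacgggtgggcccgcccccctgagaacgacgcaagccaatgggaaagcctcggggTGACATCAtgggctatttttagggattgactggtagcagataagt
Atf3, chr1:191183334-191183583, minus strand: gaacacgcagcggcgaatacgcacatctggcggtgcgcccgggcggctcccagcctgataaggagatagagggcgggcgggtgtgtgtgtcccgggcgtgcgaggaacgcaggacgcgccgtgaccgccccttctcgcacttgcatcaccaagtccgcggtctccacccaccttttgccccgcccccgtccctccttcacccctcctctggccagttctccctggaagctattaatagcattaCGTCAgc
In Fos the TGACG matches begin 129 and 66 bases and the TATAAA match 33 bases before the TSS. In Jun the TGANNTCA match begins 45 bases, and in Atf3 the TGACG match, on the opposite strand, 7 bases before the TSS. Each lies inside the accessible promoter region of its gene but away from its strongest summit, by 190 bp for the nearer Fos TGACG, 294 bp for Jun and 217 bp for Atf3.

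The 10 genes differed widely in how many accessible regions they held. Fos had 20 regions, and only 205 of 24963 genes had more. Fosb and Jun had 12 each, Batf3 9, Batf and Atf3 7 each, Fosl2 6, Junb 3, Fosl1 2 and Jund 1. The median over all genes was 2. By annotation, 58 of the 79 midpoints were intergenic, 10 intronic, 9 in a promoter-TSS (from 1 kb before a TSS to 200 bp past it), 1 in a 5′ UTR and 1 in a 3′ UTR. More than 10 kb from the TSS lay 45 regions, 26 upstream and 19 downstream. Nearness to a TSS does not show that a region acts on that gene.

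**Figure D1:**
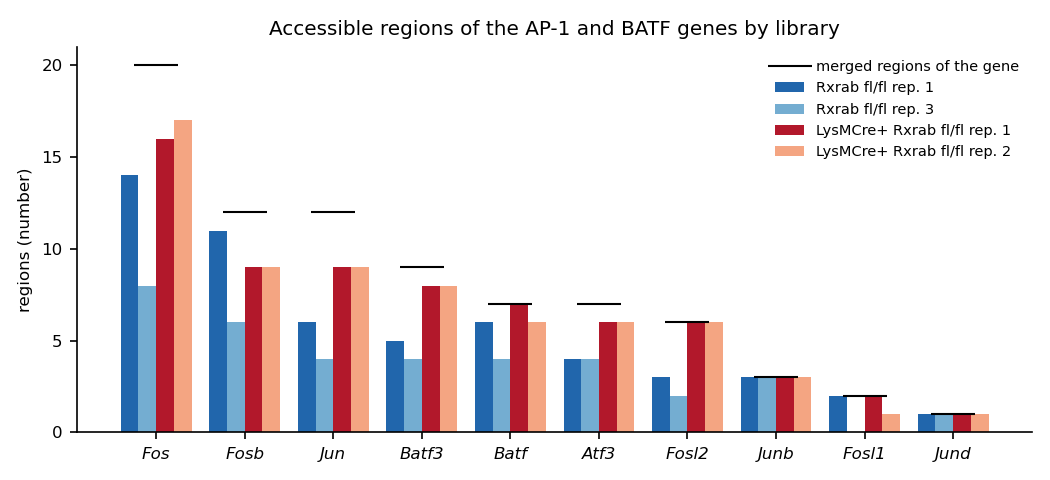
Number of merged regions of each gene (black line) and of those called in each library (bars, 1 per library). Cre-negative replicate 3 called the fewest regions of each gene or tied for it, 36 of 79 in all, and the Cre-positive libraries called 67 and 66.

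The Cre-negative libraries called 55 and 36 of the 79 regions and the Cre-positive libraries 67 and 66. In shares these are 69.6% and 45.6% against 84.8% and 83.5%, while over all regions they are 52.0% and 21.9% against 90.7% and 77.2%. Called in both Cre-positive libraries and in no Cre-negative library were 9 member regions (11.4%), against 22.8% of all 70744 regions. The reverse, a call in both Cre-negative and in no Cre-positive library, was made for 0 of the 79 (up to 3.80% allowed) and for 0.0452% of all regions, or 32. These counts changed with the number of peaks taken from each library. With an equal number of peaks taken from each library, 1 member region was called in Cre-positive only (Fos, 23.9 kb downstream) and 4 in Cre-negative only (Fos at 4.24 and 5.22 kb downstream, Junb at 2.21 kb downstream and Jun at 30.3 kb upstream, named after their values were seen), out of 43 member regions. These are 2.33% and 9.30% of the members, against 7.82% and 7.22% of 22300 regions.

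The 9 regions called only in Cre-positive had low fold enrichments. They lie at Fosl2 (3), Fos (2), Batf3 (2), Jun (1) and Atf3 (1). By fold enrichment the highest was 44.4 kb downstream of Fos (chr12:85518090-85518552), with 6.44 and 6.38. It was followed by a region 23.6 kb downstream of Fosl2 (chr5:32159867-32160182), with 5.88 and 5.47, and by 1 at the Batf3 promoter, 443 bp upstream of the TSS (chr1:191097831-191098112), with 4.79 and 6.13. These are below the medians over all regions of the same libraries, 8.17 and 7.31. Those medians include the regions called in all 4 libraries, with medians of 15.1 and 12.0. The comparison therefore cannot set the members apart from other regions called only in Cre-positive. By pileup the picture differed, and 5 of the 9 exceeded the medians over all regions, 30 and 26 tags, in both libraries. The same share over all regions called only in Cre-positive was not counted. The highest, with 137 and 97 tags, lies in an intron 2.67 kb downstream of the Atf3 TSS (named after its values were seen).

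Among the 36 regions with a call in every library, none passed limma on the log2 fold enrichment at an adjusted p of 0.05 and a log2 fold change of 1, in a fit that called 0.0395% of 15199 regions higher and 0.0461% lower in Cre-positive. The lowest adjusted p among the members was 0.0649, and 11 of the 36 had an unadjusted p under 0.05, which is 30.6% of them against 22% of all regions. With 2 libraries to a genotype a two-sided exact permutation test cannot go below 0.33, so that calls rest on the spread shared across regions. On the summit pileup, limma called 1 of the 36, lower in Cre-positive, against 4.98% of all regions lower, and none higher, against 2.49%. On the tags in 10 kb, at an adjusted p of 0.05 alone, limma called 3 of 36 higher, against 8.47%, and 3 lower, against 11.4%. Each share of calls is near or under its background. Reported as Cre-positive minus Cre-negative, the median log2 change of the 36 was −0.22 for the fold enrichment (−0.09 over all regions), −0.22 for the pileup (−0.10) and 0.02 for the tags in 10 kb (−0.05). The fold enrichment was lower in 25 of 36 regions, or 69.4%, against 59.0% of all regions. Divided by the library median, it was lower in Cre-positive without overlap in 11 of the 36 (30.6%, against 32.9% of all regions). It was higher without overlap in 7 (19.4% against 22.3%). On the pileup these were 15 (41.7% against 36.9%) and 7 (19.4% against 25.2%). A lack of overlap at a single region below is thus common in the whole data set.

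The count of calls on the fold enrichment changed with Cre-negative replicate 1. Without it, 7 of 37 member regions passed the threshold, all lower in Cre-positive, in a fit that called 543 of 15231 regions lower and 246 higher. They are the promoters of Atf3, Jun and Fosl2, the start of Junb, the region of Jund, and the regions 10.7 kb upstream of Atf3 and 16.5 kb upstream of Fosb. The remaining Cre-negative library, the one with the fewest peaks, is then assumed to vary as the Cre-positive libraries do. Without replicate 3 instead, 1 of 48 passed, the Atf3 promoter, lower in Cre-positive, in a fit that called 425 of 33268 regions lower and 757 higher.

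**Figure D2:**
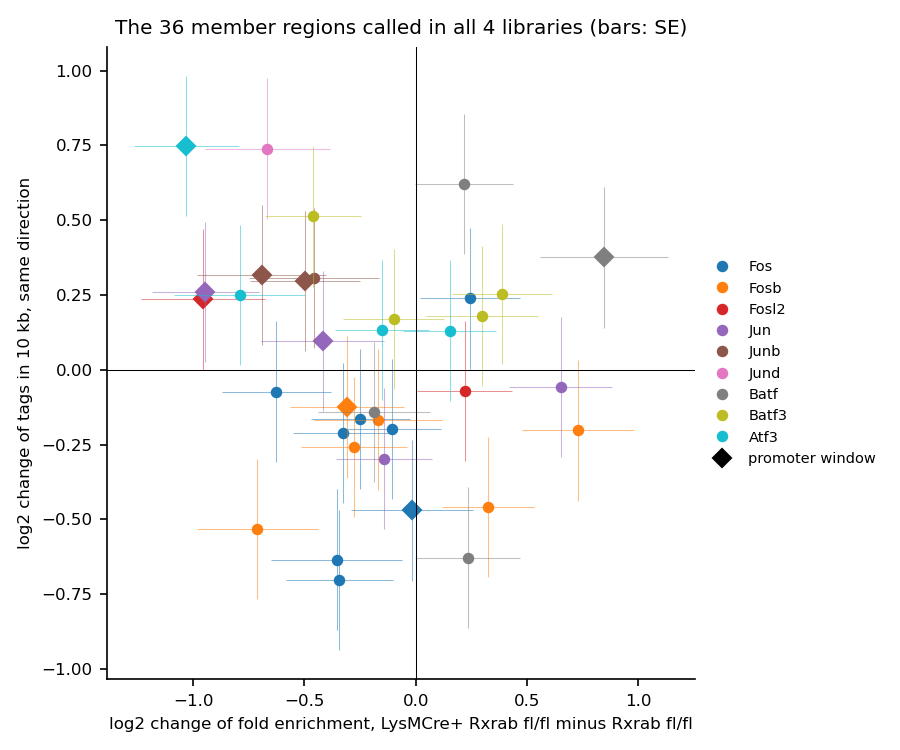
Log2 change of the fold enrichment (x) and of the tags in 10 kb (y), Cre-positive minus Cre-negative, for the 36 member regions called in all 4 libraries, coloured by gene, with limma standard errors as bars and diamonds for promoter windows. The promoters of Atf3, Jun, Fosl2 and Junb and the Jund region sit at the upper left, with a lower fold enrichment and more tags in 10 kb, and 7 of the 8 Fos regions lie below 0 on both axes.

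Fos, the immediate early FOS gene (chr12:85473890-85477274), had its strongest region at a distance of 18.6 kb before the TSS (chr12:85454894-85455781, intergenic). The summit pileup there was 4.84 and 4.70 medians in Cre-negative and 2.53 and 2.48 in Cre-positive, and the tags in 10 kb were 4.62 and 3.33 against 2.51 and 2.31 medians. Both Cre-negative libraries lay above both of the other genotype on each measure. The log2 change was −0.93 (SE 0.215, limma adjusted p = 0.0317) for the pileup, short of the fold threshold, and −0.70 (SE 0.235, adjusted p = 0.0209) for the tags in 10 kb. The fold enrichment, 16.9 and 13.6 against 16.4 and 14.4, changed by −0.34 (SE 0.241, adjusted p = 0.415), and the genotypes overlapped on it.

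The Fos promoter (chr12:85473434-85474199) was weak for its surroundings. It had fold enrichments of 3.43 and 3.32 in Cre-negative and 4.53 and 4.09 in Cre-positive, while the 10 kb around it held 6.52 and 4.80 against 4.10 and 3.98 medians of tags. Its pileup was 1.36 and 1.55 against 1.10 and 1.15 medians. The genotypes did not overlap on the pileup or the tags in 10 kb, and overlapped on the fold enrichment once it was divided by the library median. No change passed the test (fold enrichment −0.02, SE 0.272, adjusted p = 0.979, and pileup −0.37, SE 0.22, adjusted p = 0.273). At 4.85 kb downstream (chr12:85477791-85479683), just past the end of the gene, the pileup was 1.45 and 2.00 against 0.717 and 1.22 medians, without overlap, and the tags in 10 kb changed by −0.63 (SE 0.235, limma adjusted p = 0.0399). Where peaks were joined only if they shared at least 100 bp, this region split, and the part centred 4.24 kb downstream was called on the pileup (log2 change −1.17, SE 0.217, limma adjusted p = 0.0212). Over the 8 Fos regions called in all 4 libraries, 7 were lower in Cre-positive by fold enrichment, 7 by pileup and 7 by tags in 10 kb. Windows of neighbouring regions overlap, so these are not 8 separate observations. Over all regions, 59.0%, 57.1% and 54.4% were lower on the same 3 measures.

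**Figure D3:**
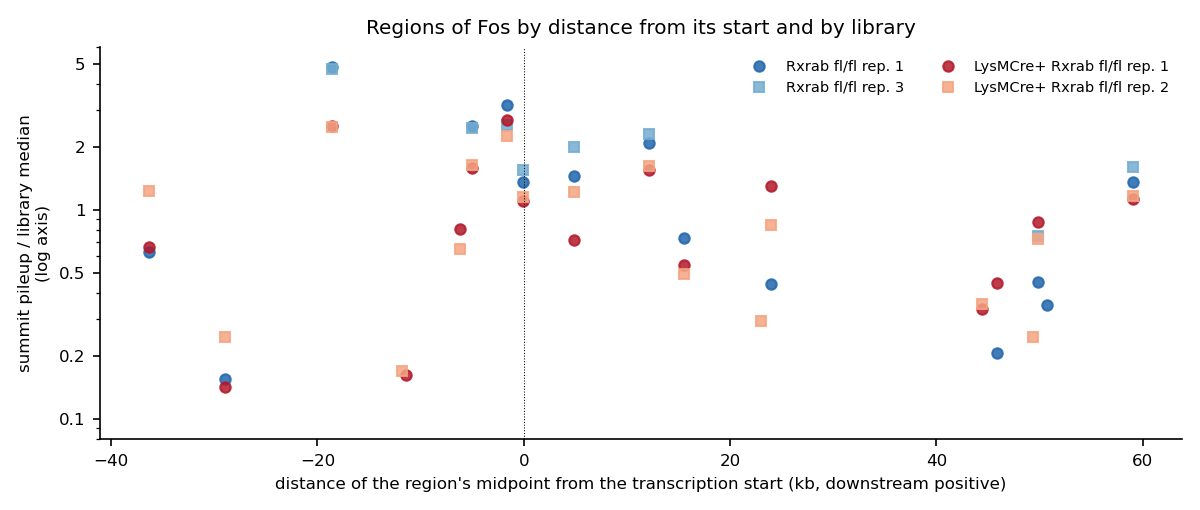
Summit pileup of each Fos region in each library, as multiples of the library median (log axis), by distance of the midpoint from the Fos TSS in kb, with a point only where the region was called. The region 18.6 kb upstream stands highest in both Cre-negative libraries (4.84 and 4.70) and in Cre-positive replicate 2 (2.48). In Cre-positive replicate 1 it has 2.53, below the 2.69 of the region 1.59 kb upstream.

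Fosb, the second immediate early FOS gene (chr7:19302696-19310045), held the 1 member region called on the pileup. It lies 16.5 kb upstream (chr7:19326401-19326758, intergenic), with pileups of 66 and 20 tags in Cre-negative, or 0.68 and 1.00 medians, and of 41 and 21 tags in Cre-positive, or 0.414 and 0.323 medians. Scaled, both Cre-negative libraries lay above both of the other genotype, and the pileup fell by 1.17 on the log2 scale (SE 0.266, limma adjusted p = 0.0303). The fold enrichment, 6.25 and 6.00 against 5.85 and 3.99, changed by −0.71 (SE 0.272, adjusted p = 0.159). Leaving out a Cre-positive library ended the call, with an adjusted p of 0.0532 without replicate 1 and 0.159 without replicate 2.

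The neighbouring Fosb region with the AP-1 match shown above, 17.3 kb upstream (chr7:19327080-19327546), has the highest mean fold enrichment of the gene outside the promoter, closely followed by the region 9.98 kb upstream (chr7:19319687-19320371), whose pileup was higher, at 2.52 and 2.50 against 1.87 and 1.78 medians (log2 change −0.46, SE 0.215, limma adjusted p = 0.172). At 17.3 kb the pileup was 1.03 and 1.00 against 1.00 and 0.969 medians, a log2 change of −0.04 (SE 0.215, adjusted p = 0.903). Its fold enrichment was 11.3 and 6.33 against 15.5 and 12.1. The Fosb promoter (chr7:19309937-19310568) had fold enrichments of 6.27 and 4.36 against 4.85 and 6.13, which overlapped (log2 change −0.31, SE 0.256, adjusted p = 0.496). In the intron 1.49 kb downstream of the TSS (chr7:19308162-19308959) they were 5.24 and 4.35 against 10.3 and 10.2, without overlap, a log2 change of 0.73 (SE 0.252, adjusted p = 0.127) that did not pass. The tags in 10 kb had a negative change at all 6 Fosb regions called in all 4 libraries, with no limma call. Windows of neighbouring regions overlap here too, so these are not 6 separate observations, and 54.4% of all regions had a negative change.

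Fosl2 encodes FRA-2, a FOS protein that lacks the strong activation domain of FOS. Its promoter region (chr5:32134931-32136125) lies 944 bp upstream of the RefSeq TSS and covers the GENCODE start, which is 671 bp upstream of the RefSeq one. The fold enrichment was 12.3 and 12.5 in Cre-negative and 9.55 and 7.14 in Cre-positive, and the pileup 3.32 and 4.20 against 2.40 and 2.32 medians. Neither overlapped between genotypes. The log2 changes were −0.96 (SE 0.28, limma adjusted p = 0.0917) and −0.66 (SE 0.229, adjusted p = 0.0862), neither past the threshold. The strongest region outside the promoter, 14.0 kb upstream, had fold enrichments of 15.7 and 7.66 against 16.8 and 16.2 (log2 change 0.22, SE 0.212, adjusted p = 0.560), and its pileups, 0.804 and 0.80 against 0.737 and 1.02 medians, overlapped.

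Fosl1 encodes FRA-1, the other such FOS protein, and had the lowest promoter pileups of the family in the 3 libraries that called it. Its promoter region (chr19:5447414-5448381) was called in 3 libraries, with a fold enrichment of 3.93 in Cre-negative replicate 1 and 5.84 and 6.00 in Cre-positive, and pileups of 14, 26 and 23 tags. The region 1.15 kb downstream was called in 1 library of each genotype, at 4.90 and 5.95. Cre-negative replicate 3 called neither, so that no test was made.

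Jun encodes the partner shared by most AP-1 dimers (chr4:95049036-95052222). At its promoter (chr4:95051941-95052847) the fold enrichment was 8.17 and 6.66 in Cre-negative and 5.54 and 4.42 in Cre-positive, and the pileup 2.77 and 2.90 against 1.95 and 1.78 medians. On both measures the Cre-negative libraries lay above the others. The changes were −0.94 (SE 0.241, limma adjusted p = 0.0751) and −0.60 (SE 0.217, adjusted p = 0.0933), and neither passed. The tags in 10 kb, 5.53 and 4.37 against 5.99 and 5.77 medians, changed by 0.26 (SE 0.234, adjusted p = 0.470). The strongest distal region, 53.9 kb upstream (chr4:95105849-95106402), had pileups of 0.711 and 0.60 against 1.11 and 0.877 medians, higher in both Cre-positive libraries (log2 change 0.60, SE 0.236, adjusted p = 0.119, not past the threshold).

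Junb, a JUN protein with weaker transactivation than JUN, lies, like Jund, among the most densely tagged regions of the data set. Its window of 10 kb held up to 2700 and 619 tags in Cre-negative and 3022 and 2051 in Cre-positive, above at least 99.85% of the regions in each library. The strongest region of its promoter window (chr8:84979508-84980402, 1.21 kb upstream) had pileups of 4.61 and 4.55 against 4.42 and 4.14 medians (log2 change −0.10, SE 0.216, limma adjusted p = 0.779). At the TSS itself (chr8:84978366-84978995) they were 2.43 and 3.0 against 2.30 and 2.17 medians (−0.27, SE 0.227, adjusted p = 0.429). The third region, 2.26 kb downstream, had 1.73 and 2.1 against 1.82 and 1.88 medians, which overlapped. The fold enrichments, which divide by these tags, were 3.14 to 8.18 over the 3 regions and 4 libraries.

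Jund encodes the JUN protein that is expressed most evenly across cells and conditions. No region overlapped the promoter window of its RefSeq TSS. Its only region (chr8:70698406-70699456) is annotated as 5′ UTR, 1.19 kb inside the RefSeq transcript, and its midpoint lies 18 bp from the GENCODE start. The fold enrichment was 6.34 and 6.40 in Cre-negative and 5.51 and 4.87 in Cre-positive (log2 change −0.67, SE 0.279, limma adjusted p = 0.189). The tags in 10 kb were 7.82 and 5.43 against 10.6 and 11.2 medians, higher in both Cre-positive libraries, and rose by 0.74 (SE 0.235, adjusted p = 0.0145). The pileup, 3.02 and 3.4 against 3.4 and 3.75 medians, changed by 0.16 (SE 0.221, adjusted p = 0.649).

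Batf encodes a bZIP factor without an activation domain that acts with IRF4 and IRF8. Its promoter region (chr12:85686565-85687405, midpoint in the first intron, 265 bp from the TSS) was among the weakest of the promoters, with pileups of 16 and 8 tags in Cre-negative and 40 and 50 in Cre-positive. The fold enrichment was 4.83 and 4.37 against 9.58 and 11.9, higher in both Cre-positive libraries. The log2 changes of 0.85 (SE 0.286, limma adjusted p = 0.123) for the fold enrichment and 1.12 (SE 0.432, adjusted p = 0.111) for the pileup did not pass. Without Cre-negative replicate 3 the change in pileup was 1.35, with 1 Cre-negative library left. With all libraries kept, the change in pileup passed the threshold after quantile normalization (1.43, SE 0.295, limma adjusted p = 0.0203). It also passed in the fit over regions called in at least 2 libraries (1.12, SE 0.379, limma adjusted p = 0.047).

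The strongest Batf region, in an intron 18.8 kb downstream of the TSS (chr12:85705047-85705931), had pileups of 1.41 and 1.55 against 2.15 and 2.94 medians and tags in 10 kb of 1.34 and 1.14 against 1.71 and 2.13 medians. Both Cre-positive libraries were higher on each. The tags in 10 kb rose by 0.62 (SE 0.234, limma adjusted p = 0.0447), and the pileup changed by 0.77 (SE 0.242, adjusted p = 0.0671). At 27.2 kb upstream (chr12:85659312-85659778) the tags in 10 kb went the other way, 0.593 and 0.822 against 0.430 and 0.475 medians, and fell by 0.63 on the log2 scale (SE 0.235, adjusted p = 0.0422). A region 38.5 kb upstream (chr12:85647973-85648546) was called in 3 libraries, with pileups of 18 tags in Cre-negative replicate 1 and 65 and 41 in Cre-positive. When regions missing from a library were kept, its log2 change was 1.10 for the fold enrichment and 1.79 for the pileup, with 1 Cre-negative library to compare.

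Batf3 encodes the related factor known for the development of cross-presenting dendritic cells. Its promoter region (chr1:191098222-191098573) was called in 3 libraries, with fold enrichments of 9.33 in Cre-negative replicate 1 and 12.8 and 8.70 in Cre-positive, and pileups of 0.361 against 0.535 and 0.538 medians. The strongest region, 12.5 kb upstream (chr1:191085527-191086231), had pileups of 1.09 and 0.90 against 1.43 and 1.58 medians, higher in both Cre-positive libraries, a change of 0.60 (SE 0.227, limma adjusted p = 0.104) that did not pass. All 4 of the Batf3 regions tested had more scaled tags in 10 kb in Cre-positive by the fitted value, none past the test. The windows at 24.6 and 27.6 kb downstream overlap, and 6926 of all 15196 regions had more tags.

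Atf3, a stress-induced bZIP factor known as a repressor of inflammatory genes in macrophages, had the largest change in fold enrichment of the members. At its promoter (chr1:191182946-191183885) the fold enrichment was 11.7 and 9.19 in Cre-negative and 7.64 and 5.64 in Cre-positive, without overlap. The log2 change was −1.03 (SE 0.236), with a limma adjusted p of 0.0649 that missed the threshold. The tags in 10 kb, 4.99 and 3.68 against 6.60 and 7.84 medians, rose by 0.75 (SE 0.235, adjusted p = 0.013). The pileup, 3.61 and 3.45 against 2.96 and 3.08 medians, changed by −0.23 (SE 0.215, adjusted p = 0.495). GENCODE places another start of the gene 34706 bp upstream, and no member region covers it. In the same 10 kb, 3 further intronic regions 0.797 to 4.40 kb downstream of the TSS were called in Cre-positive libraries and in neither Cre-negative library. Of these, 1 (2.67 kb downstream) was called in both Cre-positive libraries and the others in 1 library each. Over all regions, 22.8% were called in both Cre-positive and no Cre-negative library, and 26.9% in a single library of either genotype.

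The region with both AP-1 matches, 10.7 kb upstream of Atf3 (chr1:191193581-191194432), had fold enrichments of 9.70 and 9.64 against 6.67 and 7.81, without overlap (log2 change −0.79, SE 0.295, limma adjusted p = 0.152). Its pileups overlapped, at 1.06 and 1.55 against 0.667 and 1.12 medians. The strongest region outside the promoter, 18.0 kb upstream, had 12.2 and 7.49 against 11.9 and 10.4 in fold enrichment, a change of −0.15 (SE 0.212, adjusted p = 0.701).

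**Figure D4:**
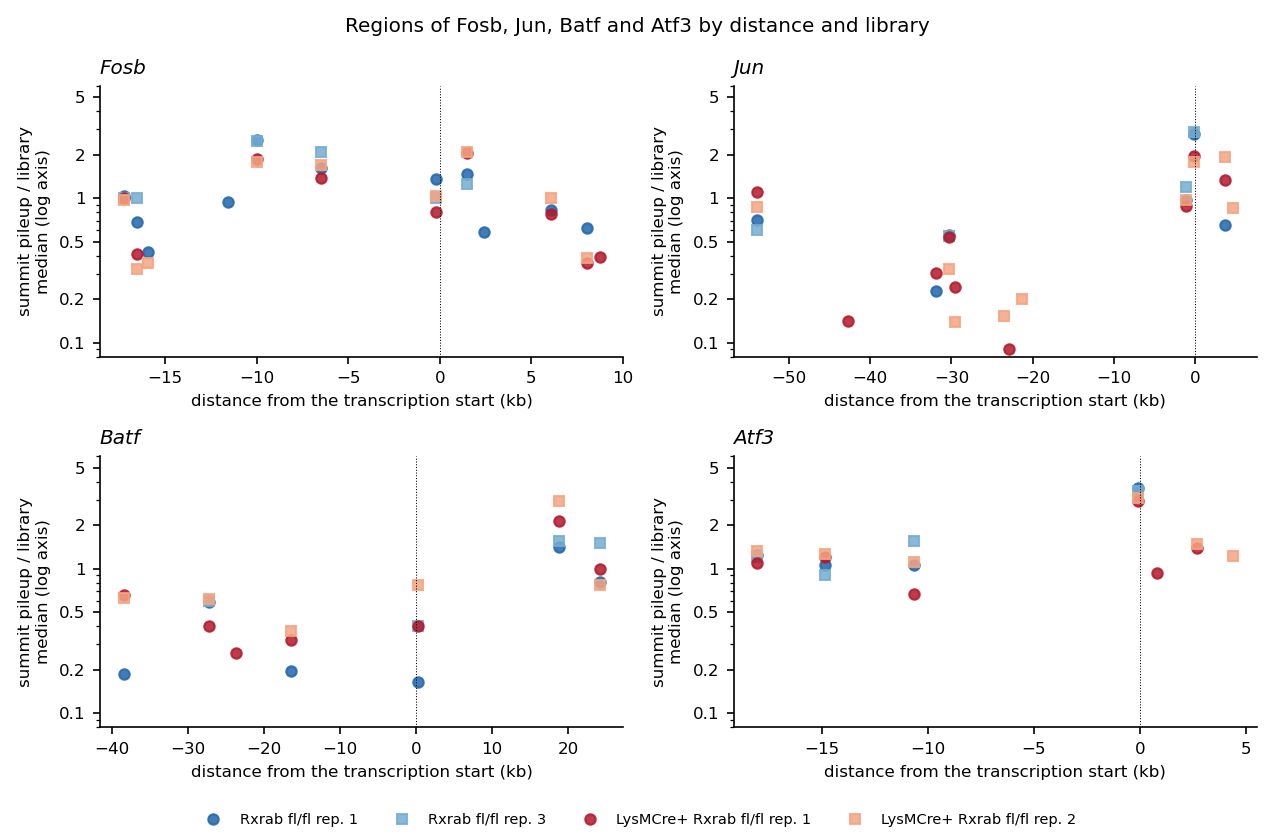
Summit pileup of the regions of Fosb, Jun, Batf and Atf3 in each library, as multiples of the library median (log axis), by distance from the TSS in kb, with a point only where the region was called. The Cre-positive points stand above the Cre-negative ones at 18.8 kb in Batf (2.15 and 2.94 against 1.41 and 1.55) and below them at the Jun promoter (1.95 and 1.78 against 2.77 and 2.90).

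Set side by side, the promoters were ordered by pileup. Junb (4.14 to 4.61 medians over the 4 libraries), Atf3 (2.96 to 3.61), Fosl2 (2.32 to 4.20) and Jund (3.02 to 3.75) were highest, of which Atf3, Fosl2 and Jund overlapped in range. The order was not the same in the genotypes, as Jund lay below Atf3 and Fosl2 in both Cre-negative libraries and above them in both Cre-positive libraries. In Cre-negative replicate 3, however, Jund had 68 tags and Atf3 69, and no change in pileup at Jund, Atf3 or Fosl2 passed the test. Jun (1.78 to 2.90) overlapped with Fosl2, and Fos (1.10 to 1.55) with Fosb (0.798 to 1.36). Batf (0.165 to 0.769), Batf3 (0.361 to 0.538) and Fosl1 (0.144 to 0.354) were lowest and overlapped. The combination seen at Atf3, Jun, Fosl2, Junb and Jund, a lower fold enrichment with more tags in the 10 kb around it, was found in 12 of the 36 member regions (33.3%) and in 25.6% of all regions. The fold enrichment divides by the background that these tags set, so the 2 measures are not independent.

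**Figure D5:**
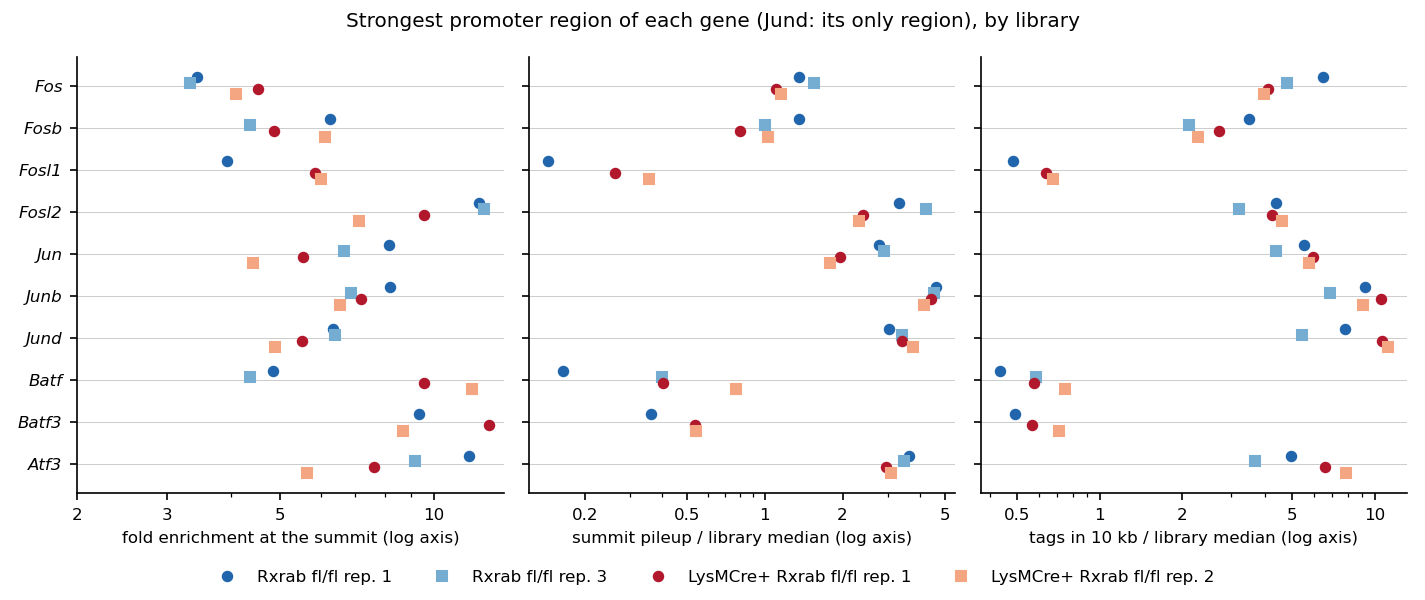
Fold enrichment, summit pileup and tags in 10 kb (the latter as multiples of the library median, log axes) at the strongest promoter region of each gene, or the only region of Jund, with 1 point per library. In the first panel, not divided by the library median, the Atf3, Jun, Fosl2 and Jund points of Cre-positive lie left of those of Cre-negative. The Batf, Fos and Fosl1 points lie right there. In the third panel the Atf3 (6.60 and 7.84 against 4.99 and 3.68), Jund, Jun, Fosl1 and Batf3 points lie right and the Fos points left. Cre-negative replicate 3 has no point for Fosl1 and Batf3.

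The genes around the AP-1 family in its pathway were counted in the same fits, at the strongest promoter region of each gene. None of 18 bZIP relatives, 18 immediate early genes, 7 described AP-1 targets and 21 upstream kinases and factors with a promoter region in all 4 libraries passed the threshold on the fold enrichment. Over all genes none rose and 4 fell of 8874. On the pileup 1 passed, Map2k7, the kinase upstream of JNK, at 2.51 and 2.15 medians in Cre-negative and 1.23 and 1.06 in Cre-positive (log2 change −1.02, SE 0.226, limma adjusted p = 0.0292), while over all genes 86 were higher and 495 lower. The median log2 change in fold enrichment was −0.50 over the 7 member promoters, −0.41 over the bZIP relatives, −0.43 over the immediate early genes, −0.30 over the kinases and factors, and 0.02 over the AP-1 targets, against −0.18 over the promoters of all genes. Irf4, the partner of BATF, is counted both among the AP-1 targets and among the small peritoneal macrophage markers.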

How the data were processed

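Per the study's methods and the submitters' processing notes, adaptors were trimmed with cutadapt, read pairs were aligned to mm10 with Bowtie2, and duplicate, low-quality, mitochondrial and X and Y reads were removed, so that sex-linked sites are not covered. The authors called peaks in each library separately with MACS2 2.1.1 at a q value of 0.05. The deposited peak lists give the fold enrichment at the summit (a ratio over local background with a pseudocount of 1), its p value and its q value, each as −log10, and a score, which is the −log10 q value rescaled and was not used. The authors' read-count test with DiffBind and edgeR was not repeated, as the files used here hold peaks.

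The fold enrichment and p value of a peak together fix its whole-number summit pileup and its background, which were found for all peaks except 1 in Rxrab fl/fl replicate 1 and 2 in LysMCre+ Rxrab fl/fl replicate 1. On simulated data, 100% of 20000 peaks were recovered. Depth was not given as read totals, and the number of tags at a median summit, 20 to 99, sets the precision. The log2 values of regions called in all 4 libraries were centred on the library median and fitted by genotype with limma 3.58.1 in R 4.3.3, with Benjamini-Hochberg adjustment over all regions. A call required an adjusted p under 0.05 and a log2 change of at least 1, except for the tags in 10 kb, where the adjusted p alone was used. Motifs were searched within 100 bp of the summit. Alternatives were the q value, the number of peaks, the overlap and extent of peaks, each library left out in turn, the centring, the variance prior, the regions tested and the assignment to genes.

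The member genes, lists and tests were chosen with earlier results of these data known. Named were the strongest region of each gene in and outside the promoter window, called regions, and the 3 strongest regions found in both Cre-positive libraries alone. The fits to the tags in 10 kb and to the pileup as a measure of its own were added after the data were seen, and regions named for their tags in 10 kb, for an AP-1 match, for calls under an alternative or at the gene end were chosen after their values were seen.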

Additional observations from a re-analysis of the deposited data

How the results depend on the processing

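With 2 libraries to a genotype and 20 tags at a median summit in the shallowest, small changes could not be detected. The limma count on the fold enrichment, 0 of 36 member regions (11 at an unadjusted p under 0.05, and 1 on the pileup), was 0 to 7 with a library left out, 1 with an equal number of peaks, 1 on the pileup, 1 with a mean-variance trend and 3 over regions called in at least 2 libraries. Over all regions the 13 calls became 12 to 1182 with a library left out, 41 with equal peaks, 1136 on the pileup, 0 without centring, 137 with the trend and 2707 over regions called in at least 2 libraries. The 1 member call on the pileup, of 36 tested, became 0 of 25 with equal peaks and 2 of 37 with an overlap of 100 bp. It became 2 of 35 with peaks cut to 100 bp either side of the summit. After quantile normalization it was 2 of 36, 1 higher (the Batf promoter) and 1 lower in Cre-positive. Over regions called in at least 2 libraries it was 6 of 52, 5 higher, the Batf promoter among them, and 1 lower. Calls on the pileup over all regions were not counted under these alternatives, so these member counts cannot be set against a background. With each library left out in turn, the log2 change in pileup at the called Fosb region stayed negative.

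The 9 regions called in Cre-positive only became 9 to 21 with a library left out (27.3% of members against 49.2% of all regions at 21), 1 with equal peaks (2.33% against 7.82%) and 2 by gene body overlap alone. The 0 in Cre-negative only became 0 to 3 with a library left out (3.80% against 1.78% at 3, without Cre-negative replicate 3), 4 with equal peaks (9.30% against 7.22%) and 1 with peaks cut at the summit (1.11% against 0.329%). The 79 member regions became 43 with equal peaks and 19 by gene body overlap alone.

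The sign at the Fos promoter (−0.02) turned without Cre-negative replicate 3 (0.10), without Cre-positive replicate 1 (0.078), without centring (0.35) and after quantile normalization (0.42), with −0.47 to 0.10 over the libraries left out. At the Fosb promoter (−0.31) it turned without Cre-positive replicate 1 (0.030), without centring (0.062) and after quantile normalization (0.021), with −0.64 to 0.030 over the libraries left out. The Atf3 promoter passed the threshold under 5 alternatives, at −1.02 to −1.33. Jun (−1.27) and Fosl2 (−1.44) passed without Cre-negative replicate 1. Beyond the cases that the changed construction itself sets, fewer samples, peaks or regions, the cause was not tested. No paired analysis was possible because the genotypes share only replicate number 1.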
